A study of Mus musculus with 18 samples.

Results

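The genes described here are 10 immediate early genes that encode AP-1 and EGR transcription factors and a related nuclear protein. They are the FOS family members Fos, Fosb, Fosl1 and Fosl2, the JUN family members Jun, Junb and Jund, the zinc finger genes Egr1 and Egr2, and Ier2. Each was taken from the count table by its symbol, which gave 10 of the 20295 genes in the table. All 10 were also among the 12156 genes that passed a filter on low counts and were tested. The RNA came from 1 mouse cell line, BAT-LgT, made of brown preadipocytes that carry the large T antigen of SV40 and that had been differentiated to brown adipocytes by day 7. Cells were first exposed to inhibitors of ATGL and HSL, the enzymes that hydrolyse triglycerides and diglycerides, for 1 h, or were not. They were then treated for 3 h with DMSO as Vehicle, with 100 nM of the β-adrenergic agonist isoproterenol (ISO), or with SR-3420, a ligand of ABHD5 that releases this co-activator of ATGL from perilipin and so starts lipolysis without a receptor signal. The labels give a dose of 10 µM for SR-3420, whereas the text of the study gives another dose. Without inhibitors the 3 groups are called Vehicle, ISO and SR-3420. With inhibitors they are Lipase Inh. + Vehicle, Lipase Inh. + ISO, and likewise Lipase Inh. + SR-3420. Each of the 6 groups had 3 replicates, and all of them shared the differentiation and the large T antigen. The question put to these genes is how far each stimulus moved them, and how far the lipase inhibitors changed that.

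AP-1 is a family of dimers that bind DNA through basic leucine zippers. FOS proteins bind as partners of JUN proteins, whereas JUN proteins can also pair with each other, and the best known AP-1 site reads TGANTCA. Fosl1 and Fosl2 encode FRA1 and FRA2, FOS-like proteins that lack the strong activation domain of FOS and FOSB. EGR1 and EGR2 are zinc finger proteins that bind GC-rich sites. Immediate early genes are switched on by kinase cascades without new protein synthesis, often through serum response factor at CArG boxes or through CREB at cAMP response elements, and their mRNAs are usually short-lived. In brown fat, β-adrenergic receptors raise cAMP and activate protein kinase A, which phosphorylates CREB.

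The libraries held between 10310447 and 21205032 counts, except for Lipase Inh. + SR-3420 replicate 2 with 4263755, where the single gene Lars2 took 18.3% of all counts. Levels are given as CPM, the counts of a gene relative to its TMM-scaled library, in the order of replicates 1, 2 and 3. The defining adipocyte genes Adipoq and Fabp4 had means of 3163 and 2887 CPM over the 18 samples. Ucp1, which marks brown adipocytes, was low without ISO, at 2.34, 3.17 and 2.56 CPM in Vehicle, and reached 359, 474 and 257 CPM in ISO. The 13 genes of the brown adipocyte list summed to between 8710 and 9936 CPM in Vehicle and between 11870 and 13214 CPM in ISO. Adipoq and Fabp4, which mark adipocytes in general, had the highest means in that list, so the sum does not set brown adipocytes apart. Of the listed genes that mark brown fat or lipid droplets, Cidea averaged 56.3, Prdm16 38.5, Cox8b 33.2, Elovl3 17.8 and Plin5 16.8 CPM, while Lep, a white adipocyte gene on the same list, was near 0. The 4 proliferation markers, led by Mki67 with a mean of 466 CPM, summed to between 432 and 820 CPM over all samples. Every Lipase Inh. + ISO sample (432 to 614 CPM) lay below every SR-3420 sample (640 to 815 CPM) in that sum, and all other pairs of groups overlapped. The 6 preadipocyte or fibroblast markers lay between 89.6 and 119 CPM in Vehicle and between 136 and 139 CPM in SR-3420. Leukocyte markers summed to at most 5.88 CPM with Ptprc at 0 in every library, endothelial markers to at most 0.524 CPM, and skeletal muscle markers to at most 2.55 CPM. The counts of a member in a library ranged from 3 for Fosb to 26738 for Egr1. In bulk RNA, a change in the share of cells that express a gene and a change in RNA per cell cannot be told apart.

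Because each of these genes rose with a stimulus, the 250 bases before their start sites were read from RefSeq promoters. There, 7 members had an entry, namely Fos, Fosb, Fosl2, Jun, Junb, Jund and Egr2. The coordinates below belong to mm9, the build of the count table, on which each entry was found again by its sequence. The 5 windows shown are those that held any of the motifs searched, with matches in capitals. All are written 5′ to 3′ on the strand of the gene. Their regions are chr12:86814590-86814839 (plus strand) for Fos, whose RefSeq start site lies 11 bases from that of the count table, chr7:19895395-19895644 (minus strand) for Fosb, chr5:32438595-32438844 (plus strand) for Fosl2, chr8:87502648-87502897 (minus strand) for Junb and chr10:67000367-67000616 (plus strand) for Egr2.
Fos: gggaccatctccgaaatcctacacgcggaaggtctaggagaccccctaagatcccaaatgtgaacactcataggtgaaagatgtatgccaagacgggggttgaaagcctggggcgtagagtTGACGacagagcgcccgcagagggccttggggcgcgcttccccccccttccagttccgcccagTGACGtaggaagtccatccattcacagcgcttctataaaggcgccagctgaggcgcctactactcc
Fosb: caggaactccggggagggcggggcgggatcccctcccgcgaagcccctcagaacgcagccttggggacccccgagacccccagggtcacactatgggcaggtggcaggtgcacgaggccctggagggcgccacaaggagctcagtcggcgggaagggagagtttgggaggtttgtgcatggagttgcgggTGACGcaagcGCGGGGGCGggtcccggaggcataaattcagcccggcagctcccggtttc
Fosl2: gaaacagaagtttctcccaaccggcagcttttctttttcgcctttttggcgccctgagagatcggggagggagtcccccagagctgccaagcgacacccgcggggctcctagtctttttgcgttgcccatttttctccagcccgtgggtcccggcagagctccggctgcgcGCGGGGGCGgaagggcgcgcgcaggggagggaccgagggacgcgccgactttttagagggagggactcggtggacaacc
Junb: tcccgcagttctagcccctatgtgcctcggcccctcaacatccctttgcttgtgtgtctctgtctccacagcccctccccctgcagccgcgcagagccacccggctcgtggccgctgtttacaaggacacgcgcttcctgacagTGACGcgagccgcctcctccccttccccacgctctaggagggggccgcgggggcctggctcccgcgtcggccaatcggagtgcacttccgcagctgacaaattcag
Egr2: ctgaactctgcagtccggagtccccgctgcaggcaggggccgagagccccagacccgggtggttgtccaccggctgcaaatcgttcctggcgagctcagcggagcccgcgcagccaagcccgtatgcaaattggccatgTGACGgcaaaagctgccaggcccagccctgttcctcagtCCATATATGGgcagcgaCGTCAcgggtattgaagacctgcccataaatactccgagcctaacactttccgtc
The motifs were searched on both strands. They were the cAMP response element TGACGTCA, its core TGACG, which the whole element also holds, the AP-1 site TGANTCA, the EGR sites GCGTGGGCG and GCGGGGGCG, and the CArG box. The core TGACG stood in the windows of Fos, at 129 to 125 and 66 to 62 bases before the start site, of Fosb at 60 to 56, of Junb at 106 to 102, and of Egr2 at 111 to 107 and, on the other strand, at 55 to 51. It occurred in 4 of the 7 windows, beside 17.8% of 32851 windows of the same length over all RefSeq promoters. The EGR site GCGGGGGCG stood in Fosb, 50 to 42 bases before the start site, and in Fosl2, at 79 to 71, beside 2.57% of all windows. Egr2 held a CArG box at 72 to 63 bases before its start site, beside 1.47% of all windows. Sites more than 250 bases before a start site, and all those of Fosl1, Egr1 and Ier2, were not read. The whole element TGACGTCA, TGANTCA and GCGTGGGCG, present in 1.55%, 6.75% and 0.536% of all windows, were not among the letters of the 7 windows. The windows of Jun and Jund held none of the 6 motifs. Only exact matches were counted, so TGACATCA in the Jun window, a near match to TGACGTCA, was left out.

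Both stimuli raised all 10 genes at 3 h in the fit used here, and they differed in which genes were raised most. With ISO, 10 of 10 members passed the test as higher (adjusted p of at most 0.05, edgeR's quasi-likelihood test, Benjamini-Hochberg adjustment over all genes tested), where 26.8% of all genes tested passed as higher and 25.0% as lower. The median log2 fold change of the members was 1.57, beside -0.021 over all genes tested. With SR-3420, again 10 of 10 passed as higher, where 26.0% of all genes passed as higher and 25.4% as lower, and the median of the members was 2.93 beside -0.0167. Together the 10 genes took 0.0800% ± 0.00453 of all counts in Vehicle, 0.212% ± 0.0254 in ISO and 0.400% ± 0.0228 in SR-3420 (SD, n = 3). Both effects were taken against the same Vehicle samples. When libraries were scaled by total counts, Ier2 with ISO (0.21, adjusted p = 0.0661) and Fosl2 with SR-3420 (0.04, adjusted p = 0.741) did not pass. Fosl2 with SR-3420 did not pass without Vehicle replicate 1 or without Vehicle replicate 2 either. The inhibitors alone left no member past the threshold, as none of the 10 passed in Lipase Inh. + Vehicle against Vehicle with edgeR or with DESeq2. There, 0.485% of all genes passed as higher and 0.428% as lower with edgeR. At an unadjusted p under 0.05 there were 0 members, and the share of all genes at that p was not computed. Errors of log2 fold changes are standard errors throughout.

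**Figure D1:**
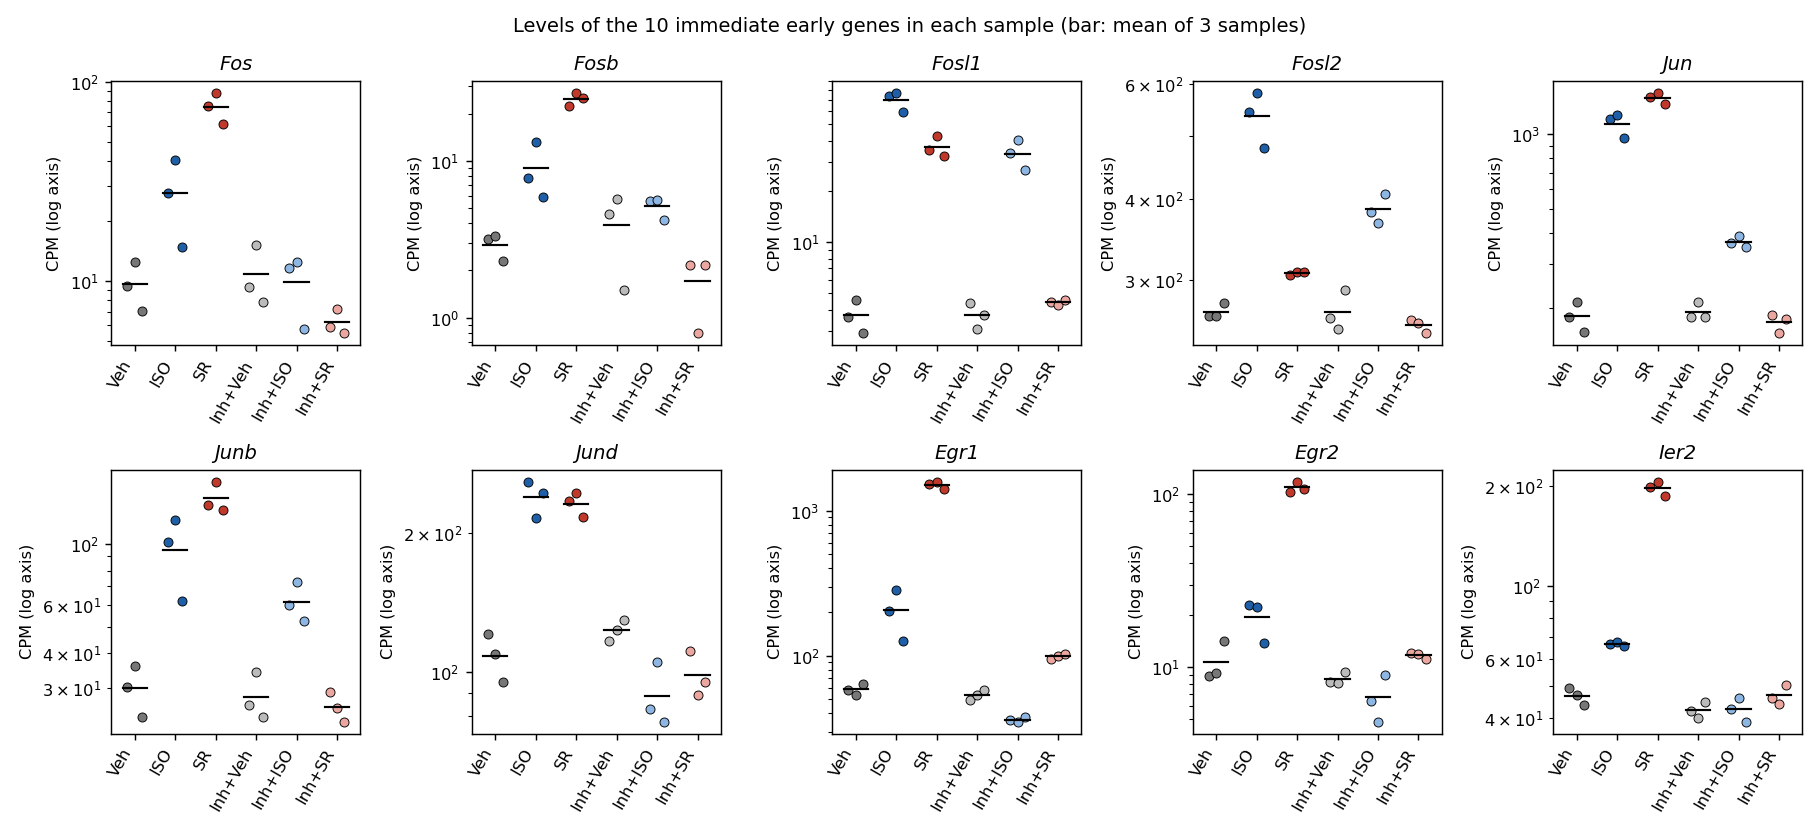
Levels of the 10 genes in each of the 18 samples, in CPM of TMM-scaled libraries on log axes, with points for replicates 1 to 3 from left to right and a bar at the group mean. The SR-3420 points lie highest for Fos, Fosb, Jun, Junb, Egr1, Egr2 and Ier2, the ISO points lie highest for Fosl1 and Fosl2, and both overlap for Jund.

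Fos (chr12:86814851-86818219, plus strand, mm9), the founding member of its family, was low at rest. Its levels were 9.35, 12.4 and 7.06 CPM in Vehicle, 27.5, 40.5 and 14.7 CPM in ISO and 75.5, 87.6 and 61.5 CPM in SR-3420. With the inhibitors, they were 9.26, 15.2 and 7.86 CPM in Lipase Inh. + Vehicle, 11.5, 12.4 and 5.73 CPM in Lipase Inh. + ISO and 5.86, 7.20 and 5.47 CPM in Lipase Inh. + SR-3420. Without the inhibitors the 3 groups did not overlap, although ISO replicate 3 lay only just above the highest Vehicle sample. ISO raised Fos 2.88-fold (log2 fold change 1.53 ± 0.30, adjusted p = 0.000219) and SR-3420 7.72-fold (2.95 ± 0.29, adjusted p = 3.66e-08). With the inhibitors neither stimulus passed the test in the fit without a replicate term, at -0.15 ± 0.33, adjusted p = 0.709 for ISO and -0.84 ± 0.37, adjusted p = 0.259 for SR-3420, although every Lipase Inh. + SR-3420 sample lay below every Lipase Inh. + Vehicle sample.

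Fosb (chr7:19888045-19895394, minus strand), which encodes the FOS relative with a strong activation domain, made up the smallest share of its family per length in every group and followed a similar order. It lay at 3.16, 3.32 and 2.29 CPM in Vehicle, 7.77, 13.3 and 5.88 CPM in ISO and 22.6, 27.2 and 25.3 CPM in SR-3420. With inhibitors the values were 4.59, 5.69 and 1.502 CPM for Vehicle, 5.58, 5.68 and 4.21 CPM for ISO and 2.16, 0.799 and 2.16 CPM for SR-3420. The lowest of these, in the library of low depth, rests on 3 counts, and the 3 groups with inhibitors overlapped in part. Without inhibitors, Fosb rose 3.05-fold with ISO (1.61 ± 0.33, adjusted p = 0.000326) and 8.43-fold with SR-3420 (3.08 ± 0.31, adjusted p = 3.65e-08). In the presence of inhibitors its log2 fold change was 0.42 ± 0.34, adjusted p = 0.293 for ISO and -0.94 ± 0.42, adjusted p = 0.263 for SR-3420. The latter passed as lower without Lipase Inh. + Vehicle replicate 3, at -1.38 (adjusted p = 0.0241).

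Fosl1 showed the largest ISO effect of the 10 genes and was the FOS gene that ISO still raised most when the lipases were inhibited. It was measured at 3.60, 4.56 and 2.91 CPM in Vehicle, 73.1, 76.5 and 58.7 CPM in ISO and 35.0, 42.4 and 32.3 CPM in SR-3420. In the inhibitor groups, Vehicle gave 4.37, 3.05 and 3.70 CPM, ISO 33.6, 40.1 and 26.8 CPM and SR-3420 4.42, 4.26 and 4.58 CPM. The SR-3420 and Lipase Inh. + ISO samples overlapped, and both lay well above the 3 groups at the bottom, which overlapped each other in part. ISO raised Fosl1 18.7-fold (4.23 ± 0.18, adjusted p = 2.22e-14) and SR-3420 9.81-fold (3.29 ± 0.18, adjusted p = 2.99e-12). With inhibitors ISO still raised it 8.90-fold (3.15 ± 0.18, adjusted p = 1.92e-12), whereas SR-3420 gave 0.26 ± 0.23, adjusted p = 0.645.

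The counts of Fosl1 come from a part of the gene. On mm9, Fosl1 lies at chr19:5447698-5455938 on the plus strand and has 4 exons, of which exons 3 and 4, with 108 and 1047 bases, lie within the span of Ccdc85b, a gene on the opposite strand at chr19:5453163-5457563. Of the 1705 exonic bases, 550 lie outside that span, and 550 is also the length over which the authors counted Fosl1. Ccdc85b, which encodes a coiled-coil protein, was counted at 28.2, 30.1 and 20.5 CPM in Vehicle, 113, 126 and 80.5 CPM in ISO and 49.2, 52.5 and 43.2 CPM in SR-3420. With inhibitors it was at 19.5, 20.4 and 20.5 CPM in Vehicle, 64.02, 73.0 and 54.1 CPM in ISO and 20.6, 19.2 and 14.6 CPM in SR-3420. It was higher with ISO (2.01 ± 0.16, adjusted p = 5.57e-10), with SR-3420 (0.87 ± 0.16, adjusted p = 9.26e-05) and with Lipase Inh. + ISO against its own control (1.66 ± 0.16, adjusted p = 1.19e-08). For Ccdc85b, as for Fosl1, ISO lay highest, and Lipase Inh. + ISO and SR-3420 lay above the 3 other groups. Ccdc85b was counted over 3091 bases of a span of 4401. The sources used here do not say which bases these were or whether reads were counted by strand. Transcription of Ccdc85b and reads from the last exons of Fosl1 therefore cannot be told apart here.

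**Figure D2:**
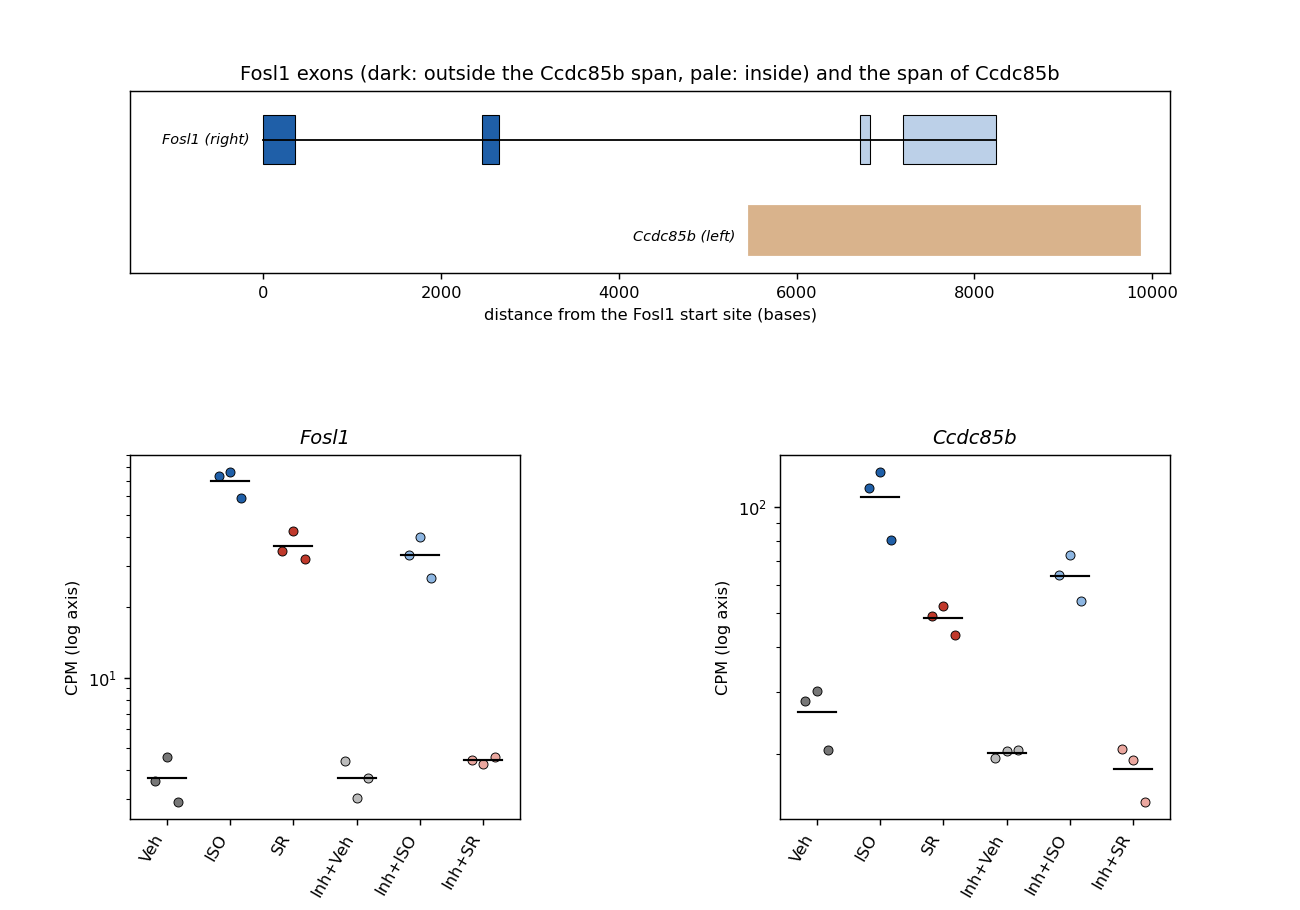
Exons of Fosl1 and the span of Ccdc85b against the distance from the Fosl1 start site in bases (top), and the levels of both genes in each sample in CPM on log axes with a bar at the group mean (bottom). The 2 dark exons hold the 550 counted bases, and for both genes ISO lies highest, at means of 69.4 CPM for Fosl1 and 106 CPM for Ccdc85b.

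Fosl2 (chr5:32438845-32460212, plus strand), the most abundant FOS transcript per length at rest, was raised at 3 h far more by ISO than by SR-3420. Its levels were 265, 264 and 277 CPM in Vehicle, 545, 582 and 479 CPM in ISO and 305, 309 and 309 CPM in SR-3420. With inhibitors, they were 263, 252 and 289 CPM for Vehicle, 381, 367 and 407 CPM for ISO and 261, 257 and 249 CPM for SR-3420. Both ISO groups stood above all other samples, and the narrow SR-3420 group lay between them and Vehicle. ISO raised Fosl2 2.00-fold without inhibitors (1.00 ± 0.07, adjusted p = 1.10e-10) and 1.44-fold with them (0.52 ± 0.07, adjusted p = 1.25e-06). The effect of SR-3420 was small, at 1.15-fold (0.20 ± 0.07, adjusted p = 0.0221), and was not past the threshold without Vehicle replicate 1 (0.19, adjusted p = 0.0524), without Vehicle replicate 2 (0.19, adjusted p = 0.0571) or when libraries were scaled by total counts (0.04, adjusted p = 0.741). With inhibitors SR-3420 gave -0.07 ± 0.07, adjusted p = 0.695.

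Jun (chr4:94715727-94718913, minus strand), the founding JUN gene, was the most abundant of the 3 JUN genes per length of transcript in every group. It stood at 184, 211 and 159.8 CPM in Vehicle, 1149, 1198 and 962 CPM in ISO and 1409, 1464 and 1322 CPM in SR-3420. With inhibitors its levels were 184, 210.4 and 184 CPM in Vehicle, 366, 389 and 353 CPM in ISO and 188, 159 and 179.7 CPM in SR-3420. The SR-3420 samples were above the ISO samples, the Lipase Inh. + ISO samples lay between those and Vehicle, and the 3 remaining groups overlapped. Jun rose 5.97-fold with ISO (2.58 ± 0.10, adjusted p = 5.88e-15) and 7.57-fold with SR-3420 (2.92 ± 0.10, adjusted p = 2.93e-15). With inhibitors the rise with ISO was 1.92-fold (0.94 ± 0.10, adjusted p = 2.64e-08), and SR-3420 gave -0.13 ± 0.10, adjusted p = 0.572.

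Junb (chr8:87500808-87502647, minus strand) encodes a JUN protein that is a weaker activator than JUN. Its levels were 30.1, 36.1 and 23.6 CPM in Vehicle, 102, 122 and 61.8 CPM in ISO and 139, 168 and 133 CPM in SR-3420. In the presence of inhibitors, Vehicle had 25.9, 34.2 and 23.5 CPM, ISO 59.9, 72.4 and 52.5 CPM and SR-3420 28.9, 25.3 and 22.6 CPM. ISO replicate 3 lay within the range of Lipase Inh. + ISO, and the other 2 ISO samples above it. ISO raised Junb 3.18-fold (1.67 ± 0.20, adjusted p = 2.87e-07), and still 2.21-fold with inhibitors (1.15 ± 0.20, adjusted p = 3.69e-05). SR-3420 raised it 4.88-fold (2.29 ± 0.19, adjusted p = 3.82e-09) without inhibitors and gave -0.12 ± 0.22, adjusted p = 0.853 with them.

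Jund (chr8:73221638-73224515, plus strand), the JUN gene known for its steady expression in resting cells, rose with both stimuli and lay below its control when ISO was given with inhibitors. It was at 121, 109 and 94.7 CPM in Vehicle, 259, 216 and 245 CPM in ISO and 235, 244 and 217 CPM in SR-3420. With inhibitors, Vehicle stood at 117, 123 and 129.6 CPM, ISO at 82.7, 105 and 77.9 CPM and SR-3420 at 111, 88.7 and 95.1 CPM. All samples of both inhibited stimulus groups lay below all Lipase Inh. + Vehicle samples. The rise was 2.21-fold with ISO (1.15 ± 0.11, adjusted p = 7.65e-09) and 2.14-fold with SR-3420 (1.097 ± 0.10, adjusted p = 2.08e-08). With inhibitors, Jund fell with ISO (-0.48 ± 0.11, adjusted p = 0.000531), and SR-3420 gave -0.32 ± 0.11, adjusted p = 0.114, which passed when no filter on low counts was used (-0.33, adjusted p = 0.0304).

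Egr1, the founding EGR gene, had the largest SR-3420 effect of the 10 genes. Its levels were 57.8, 53.9 and 63.96 CPM in Vehicle, 204, 285 and 127 CPM in ISO and 1539, 1584 and 1402 CPM in SR-3420. In the inhibitor groups it was at 49.7, 53.3 and 58.1 CPM for Vehicle, 36.0, 35.2 and 37.7 CPM for ISO and 94.8, 98.9 and 103 CPM for SR-3420. No pair of a stimulus group and its control overlapped, with SR-3420 above its control and ISO below its control in the presence of inhibitors. Egr1 rose 3.52-fold with ISO (1.82 ± 0.17, adjusted p = 8.54e-09) and 25.8-fold with SR-3420 (4.69 ± 0.18, adjusted p = 1.55e-14). With inhibitors, it fell with ISO (-0.56 ± 0.18, adjusted p = 0.00900) and rose 1.84-fold with SR-3420 (0.88 ± 0.17, adjusted p = 0.00310).

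Egr2 (chr10:67000617-67004936, plus strand), a close relative of Egr1, moved with it at lower levels per length. It lay at 8.85, 9.27 and 14.1 CPM in Vehicle, 22.8, 22.2 and 13.9 CPM in ISO and 103, 118 and 108 CPM in SR-3420. With inhibitors its values were 8.17, 8.07 and 9.42 CPM in Vehicle, 6.39, 4.85 and 8.97 CPM in ISO and 12.1, 12.0 and 11.1 CPM in SR-3420. ISO and Vehicle overlapped, as ISO replicate 3 lay below Vehicle replicate 3, while the SR-3420 samples stood far above both. Egr2 rose 1.87-fold with ISO (0.90 ± 0.19, adjusted p = 0.000370) and 10.3-fold with SR-3420 (3.36 ± 0.18, adjusted p = 2.00e-12). With inhibitors, ISO gave -0.30 ± 0.21, adjusted p = 0.237 and SR-3420 0.44 ± 0.21, adjusted p = 0.317. The former passed as lower without Lipase Inh. + ISO replicate 3 (-0.61, adjusted p = 0.0337) and with scaling by total counts (-0.53, adjusted p = 0.0289).

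Ier2 (chr8:87185230-87186751, minus strand), which encodes a short-lived nuclear protein, was raised at 3 h mainly by SR-3420. Its levels were 49.2, 46.8 and 43.8 CPM in Vehicle, 66.7, 67.6 and 66.1 CPM in ISO and 199, 206 and 186 CPM in SR-3420. With inhibitors, the values were 42.1, 39.9 and 44.6 CPM in Vehicle, 42.5, 46.0 and 39.0 CPM in ISO and 46.0, 44.0 and 50.3 CPM in SR-3420. The replicates of each group lay close together, and all 3 inhibitor groups overlapped in part with one another. Ier2 rose 1.43-fold with ISO (0.52 ± 0.08, adjusted p = 6.40e-06), which was no longer past the threshold with scaling by total counts (0.21, adjusted p = 0.0661). SR-3420 raised it 4.22-fold (2.08 ± 0.08, adjusted p = 4.51e-15). With inhibitors the log2 fold change was 0.00 ± 0.08, adjusted p = 0.982 for ISO and 0.16 ± 0.08, adjusted p = 0.340 for SR-3420.

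**Figure D3:**
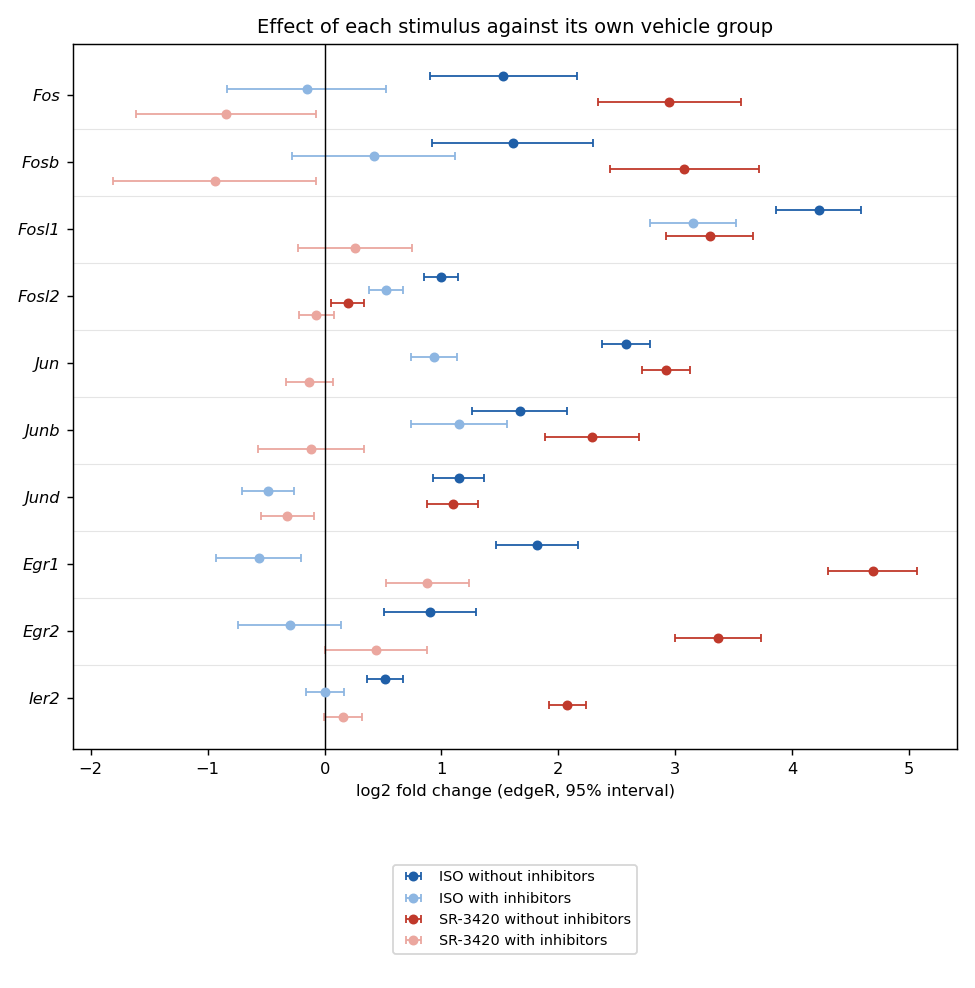
Log2 fold change of each gene for ISO and SR-3420 against the vehicle group with the same inhibitor treatment, with 95% intervals from the edgeR fit over 18 samples. Without inhibitors all intervals lie above 0, and with inhibitors those of Fosl1, Fosl2, Jun and Junb lie above 0 and those of Jund and Egr1 below 0 for ISO. The intervals are not adjusted for the number of genes, and for SR-3420 with inhibitors Egr1 alone passed the adjusted test.

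With the lipases inhibited, the shares of members called with ISO came closer to those of all genes. In Lipase Inh. + ISO against Lipase Inh. + Vehicle, 4 members passed as higher, namely Fosl1, Fosl2, Jun and Junb, where 29.4% of all genes tested passed as higher. Jund and Egr1 passed as lower, where 28.3% of all genes did. Fos, Fosb, Egr2 and Ier2 passed in neither direction, with a 95% interval for Fosb from -0.28 to 1.12. For SR-3420 with inhibitors, Egr1 passed as higher, where 2.99% of all genes did, and 0 members passed as lower with edgeR without a replicate term or with DESeq2, where 1.36% of all genes did with edgeR. In that comparison 5 members had an unadjusted p under 0.05, which were Egr1 and Egr2 above and Fos, Fosb and Jund below their control. Over all genes tested, 9.74% lay above and 5.94% below their control at that unadjusted p.

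Whether the inhibitors changed each effect was tested as an interaction, the log2 fold change of a stimulus with inhibitors minus that without. For ISO, 8 of 10 members passed as lower and 0 as higher, where 16.6% of all genes tested passed as lower and 14.9% as higher. The largest drop of the ISO effect was that of Egr1 (-2.38 ± 0.24, adjusted p = 1.23e-07), followed by Fos (-1.68 ± 0.44, adjusted p = 0.00602), Jun (-1.64 ± 0.13, adjusted p = 4.81e-09) and Jund (-1.63 ± 0.15, adjusted p = 2.74e-08). Egr2 (-1.20 ± 0.28, adjusted p = 0.00242) and Fosl1 (-1.07 ± 0.27, adjusted p = 0.00371) were also reduced. Ier2 (-0.51 ± 0.11, adjusted p = 0.000884) and Fosl2 (-0.47 ± 0.10, adjusted p = 0.000740) changed least among those that passed. Fosb at -1.19 ± 0.48, adjusted p = 0.0620 and Junb at -0.52 ± 0.28, adjusted p = 0.158 did not pass, with 95% intervals from -2.18 to -0.20 and from -1.10 to 0.05. Both calls changed with the samples kept and with the model used. Fosb passed without ISO replicate 3 (-1.39, adjusted p = 0.0285), without Lipase Inh. + Vehicle replicate 3 (-1.63, adjusted p = 0.00281) and with no filter on low counts (-1.18, adjusted p = 0.0132). Junb passed without ISO replicate 3 (-0.75, adjusted p = 0.0174). When a replicate term was added to the edgeR model and no sample was left out, both genes passed as lower. The values were -1.12 (adjusted p = 0.0222) for Fosb and -0.505 (adjusted p = 0.00829) for Junb. The level of Junb was lowest in replicate 3 of every group, and what moved these calls was not tested.

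For SR-3420, all 10 members passed as lower in the interaction, where 14.8% of all genes tested passed as lower and 12.5% as higher. Fosb (-4.02 ± 0.51, adjusted p = 6.07e-06), Egr1 (-3.81 ± 0.24, adjusted p = 3.55e-10) and Fos (-3.79 ± 0.47, adjusted p = 3.90e-06) had the largest drops. Jun (-3.05 ± 0.14, adjusted p = 2.24e-12), Fosl1 (-3.03 ± 0.30, adjusted p = 2.33e-07), Egr2 (-2.93 ± 0.27, adjusted p = 1.13e-07) and Junb (-2.40 ± 0.29, adjusted p = 2.91e-06) came next. Ier2 (-1.92 ± 0.11, adjusted p = 8.79e-11) and Jund (-1.41 ± 0.15, adjusted p = 5.75e-07) had smaller drops. That of Fosl2 (-0.27 ± 0.10, adjusted p = 0.0494) was at the threshold, with an adjusted p between 0.0505 and 0.138 when any of 13 libraries was left out, which were all but Vehicle replicate 3, ISO replicates 2 and 3, Lipase Inh. + Vehicle replicate 2 and Lipase Inh. + ISO replicate 3. It did not pass with no filter on low counts (-0.28, adjusted p = 0.0569) or with scaling by total counts (-0.22, adjusted p = 0.207) either. Both interactions rest on the same Vehicle and Lipase Inh. + Vehicle samples, and the SR-3420 interaction includes the library of low depth. Without that library, 9 members passed as lower in the SR-3420 interaction, Fosl2 being the exception (-0.27, adjusted p = 0.0707), and Egr1 still passed as higher in Lipase Inh. + SR-3420 against Lipase Inh. + Vehicle (0.88, adjusted p = 0.00984).

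Compared directly without inhibitors at 3 h, the stimuli favoured different members. No other time was sampled in these groups, so a rise that came and went before 3 h would not be seen. In ISO against SR-3420, Fosl1 (0.93 ± 0.14, adjusted p = 2.41e-05) and Fosl2 (0.80 ± 0.07, adjusted p = 1.89e-08) were higher with ISO, 2 of 10 members where 15.8% of all genes tested passed as higher. Lower with ISO were 7 members, where 13.9% of all genes passed as lower. The widest gaps were those of Egr1 (-2.87 ± 0.17, adjusted p = 2.77e-11), Egr2 (-2.46 ± 0.17, adjusted p = 3.73e-10) and Ier2 (-1.56 ± 0.07, adjusted p = 8.61e-13). Fosb (-1.47 ± 0.27, adjusted p = 0.000295) and Fos (-1.42 ± 0.26, adjusted p = 0.000364) followed. Junb (-0.62 ± 0.18, adjusted p = 0.0133) and Jun (-0.34 ± 0.09, adjusted p = 0.00805) differed least, and neither passed without ISO replicate 3, at -0.39 (adjusted p = 0.0731) for Junb and -0.25 (adjusted p = 0.0563) for Jun. Junb did not pass without SR-3420 replicate 2 either (-0.51, adjusted p = 0.0631). Jund differed by 0.05 ± 0.10 with a 95% interval from -0.16 to 0.26, which did not pass (adjusted p = 0.751). The preadipocyte or fibroblast markers, which were highest in SR-3420, lay between 104 and 132 CPM in ISO, and their part in these differences was not tested.

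**Figure D4:**
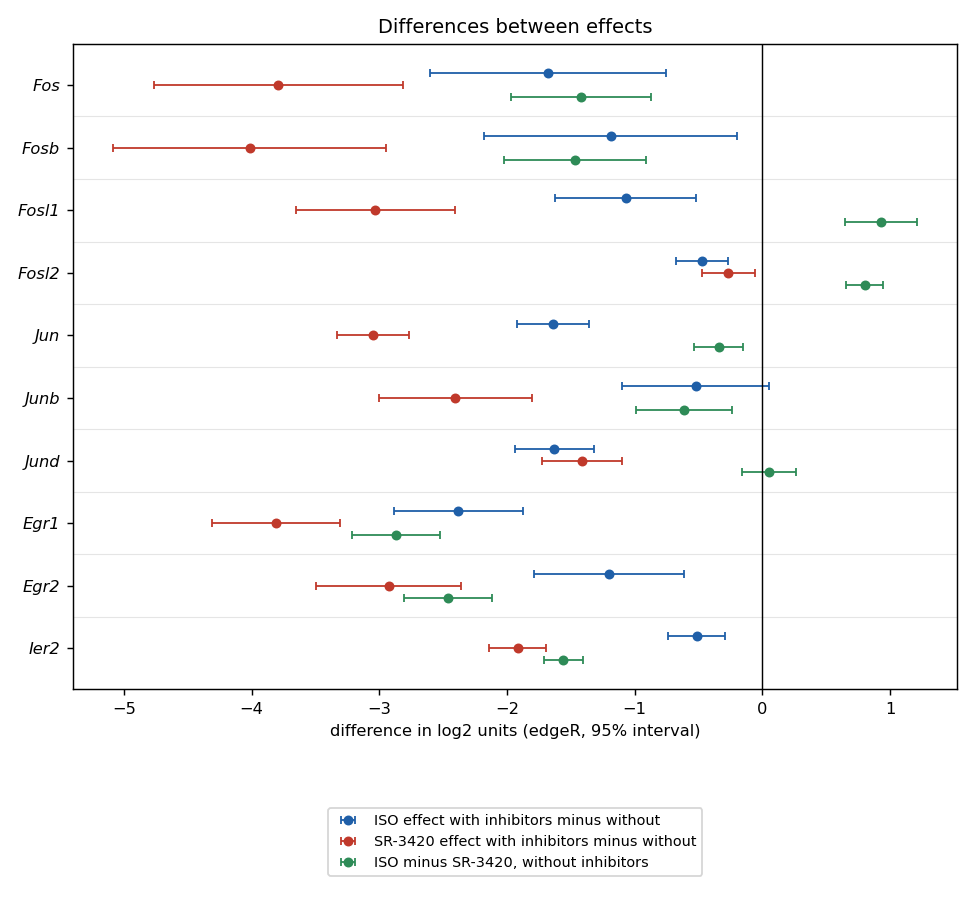
Differences in log2 units with 95% intervals from the edgeR fit, for each effect with inhibitors minus without (ISO in blue, SR-3420 in red) and for ISO minus SR-3420 without inhibitors (green). The red points lie to the left of 0 for all 10 genes, and the green points lie to the right of 0 for Fosl1 and Fosl2 and at 0.05 for Jund.

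Levels of different genes were compared per kilobase of counted length (RPKM), as a share of their family. In Vehicle, Fosl2 made up 79.2% ± 4.35 of the FOS family RPKM and Fosl1 11.6% ± 2.21 (SD, n = 3). In ISO, Fosl1 took 54.2% ± 0.941 and Fosl2 39.3% ± 1.88, and in SR-3420 they took 41.1% ± 1.78 and 32.7% ± 3.14. Fos itself reached 22.1% ± 1.86 of the family in SR-3420, against 7.90% ± 1.96 in Vehicle and 5.48% ± 1.93 in ISO. In Lipase Inh. + ISO the family was divided between Fosl2 with 49.9% ± 6.60 and Fosl1 with 45.6% ± 5.52. The summed RPKM of the 4 FOS genes was 57.9 ± 1.99 in Vehicle, 233 ± 32.7 in ISO and 161 ± 16.0 in SR-3420. The shares of Fosl1 rest on the 550 bases over which it was counted.

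Among the JUN genes, the share of Jun grew from 51.8% ± 1.93 of the family RPKM in Vehicle to 71.9% ± 0.718 in ISO and 73.3% ± 0.872 in SR-3420 (SD, n = 3). Jund declined in share from 33.7% ± 2.80 to 17.5% ± 2.87 and 13.5% ± 0.150, though its level rose. The family summed to 112 ± 14.4 RPKM in Vehicle, 481 ± 52.7 in ISO and 599 ± 36.7 in SR-3420. Egr1 made up 84.2% ± 2.53 of the RPKM of both EGR genes in Vehicle and 93.0% ± 0.475 in SR-3420. Their sum was 22.7 ± 2.57 RPKM in Vehicle, 73.5 ± 27.1 in ISO and 528 ± 32.1 in SR-3420. These shares are descriptions without a test.

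**Figure D5:**
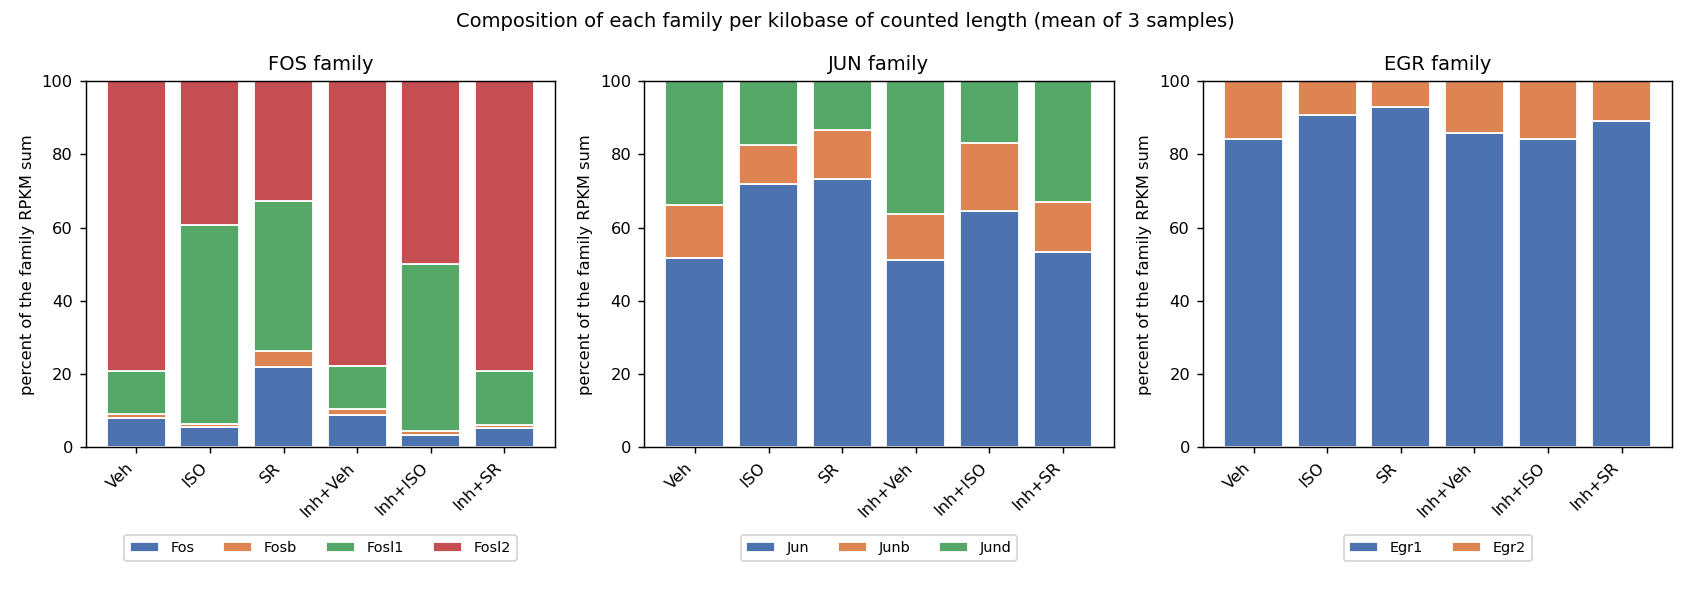
Mean share of each gene in the summed RPKM of its family (percent, 3 samples a group) for the FOS, JUN and EGR genes in the 6 groups. Fosl2 holds 79.2% of the FOS family in Vehicle, Fosl1 holds 54.2% in ISO, and Jun holds 73.3% of the JUN family in SR-3420.

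Genes around these factors were followed as 4 lists. The lists were chosen with earlier results of these data known, so their counts are descriptions. Over all genes tested, 26.8% passed as higher and 25.0% as lower with ISO, and 26.0% and 25.4% with SR-3420. Of 11 other AP-1 dimer partners from the ATF, BATF, JDP and small MAF families, 9 were tested. With ISO, 4 rose, 1 fell and 4 did not pass, with a median log2 fold change of 0.204 beside -0.021 over all genes. Atf3, a stress-induced partner of JUN, rose most, by 5.00 ± 0.16 log2 units with ISO and by 5.31 ± 0.16 with SR-3420 (adjusted p-values 2.95e-16 and 5.33e-16). Its ISO effect was reduced by the inhibitors (-3.86 ± 0.22, adjusted p = 2.84e-11), and so was its SR-3420 effect (-4.50 ± 0.23, adjusted p = 1.06e-11). Maff, a small MAF protein gene, rose with ISO (1.51 ± 0.12, adjusted p = 6.42e-10), while Jdp2, which encodes a repressor that pairs with JUN, fell (-0.47 ± 0.13, adjusted p = 0.00490). Batf3 gave -0.07 ± 0.51, adjusted p = 0.916. With SR-3420, 6 of the 9 rose, 0 fell and 3 did not pass, at a median of 0.394 beside -0.0167. Over the 4 lists, Maff was the single gene past the threshold with the inhibitors alone, where it was lower (-0.53 ± 0.12, adjusted p = 0.0341).

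Of the EGR relatives and NAB corepressors, 3 of 5 were tested, of which 1 rose with ISO and 2 with SR-3420, and none fell with either. Egr3 rose with SR-3420 (1.48 ± 0.16, adjusted p = 1.37e-07) and gave -0.21 ± 0.19, adjusted p = 0.361 with ISO. Nab2, whose product binds EGR proteins and represses them, likewise rose with SR-3420 (0.84 ± 0.12, adjusted p = 6.80e-06) and gave 0.16 ± 0.12, adjusted p = 0.278 with ISO. Nab1, its relative, rose with ISO (0.59 ± 0.09, adjusted p = 6.64e-06) and gave 0.19 ± 0.09, adjusted p = 0.0677 with SR-3420. Direct comparison showed lower levels with ISO than with SR-3420 for Egr3 (-1.70 ± 0.17, adjusted p = 1.28e-07) and Nab2 (-0.67 ± 0.12, adjusted p = 0.000261), and higher levels for Nab1 (0.40 ± 0.09, adjusted p = 0.00147).

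All 20 other immediate early genes of the list were tested. With ISO, 17 rose, 2 fell and 1 did not pass, at a median log2 fold change of 0.773 beside -0.021 over all genes. The orphan receptor gene Nr4a1 (4.89 ± 0.11, adjusted p = 9.94e-19) and the kinase gene Sik1 (3.01 ± 0.13, adjusted p = 3.71e-14) rose most, and Klf2 (-0.75 ± 0.28, adjusted p = 0.0305) and Ier5l (-0.61 ± 0.21, adjusted p = 0.0186) were the ones that fell. With SR-3420, 17 rose, 0 fell and 3 did not pass, at a median of 1.01 beside -0.0167. The inhibitors lowered the ISO effect in 13 genes of the list and raised it in 2, where 16.6% of all genes passed as lower and 14.9% as higher. They lowered the SR-3420 effect in 17 and raised it in 0, where 14.8% and 12.5% of all genes did. With inhibitors, ISO raised 10 and lowered 5, where 29.4% of all genes passed as higher and 28.3% as lower, and SR-3420 raised 6 and lowered 0, where 2.99% and 1.36% did. Unlike Egr1 and Ier2, Nr4a1 was higher with ISO than with SR-3420 (1.84 ± 0.09, adjusted p = 2.20e-12), as was Sik1 (1.67 ± 0.12, adjusted p = 9.52e-10).

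The 19 factors and kinases that act upstream of these genes included Srf, which is also in the list before. With ISO, 8 rose, 2 fell and 9 did not pass, at a median log2 fold change of 0.117 beside -0.021 over all genes. With SR-3420, 8 rose, 4 fell and 7 did not pass, at 0.163 beside -0.0167. Crem, which encodes activators and repressors at cAMP response elements, rose with ISO both without (1.61 ± 0.11, adjusted p = 5.24e-11) and with inhibitors (2.49 ± 0.11, adjusted p = 2.03e-14), and gave 0.25 ± 0.11, adjusted p = 0.0721 with SR-3420. Its ISO effect was larger with inhibitors (0.88 ± 0.15, adjusted p = 0.000106), in the direction opposite to Fos and Egr1. The CREB co-activator gene Crtc2 rose with ISO (0.74 ± 0.10, adjusted p = 1.59e-06) and SR-3420 (1.01 ± 0.10, adjusted p = 2.25e-08). The kinase genes Mapk14 (-0.40 ± 0.06, adjusted p = 5.38e-06) and Mapk3 (-0.27 ± 0.10, adjusted p = 0.0315) fell with ISO. These are mRNA levels, and kinase activity was not measured in these data.

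As a description over the 18 samples, the 10 genes fell into different patterns of log2 CPM. Egr1 ran closest to Egr2 (Pearson r = 0.984) and Ier2 (r = 0.969), and Fosl1 ran close to Fosl2 (r = 0.852), whereas Fosl2 and Egr2 had r = 0.0955. Among 9345 other genes, those most like Fos were Zfp36 (r = 0.964), Btg2 (r = 0.959) and Rassf1 (r = 0.940). Most like Junb were Csrnp1 (r = 0.983), Tnc (r = 0.968) and Ywhag (r = 0.963). The 18 points share 6 treatments, and these values carry no test.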

How the data were processed

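RNA-seq counts of 18 samples were used, 3 in each of 6 groups, with groups and replicate numbers from the sample titles. The study's methods describe independent experiments, but the labels tie no sample to a culture, so p-values measure the spread between these samples. The authors made TruSeq libraries, aligned reads to mm9 with STAR 2.4.2a, kept 1 read per position and length in HOMER tag directories, and counted reads per gene with iRNA-seq. The deposited values are whole-number counts, neither normalised nor filtered, and 0 columns belonged to other samples. Keeping 1 read per position can flatten high counts. Among the 10 genes, Egr1 reached the highest value, 8.70 reads per counted base, and 100 genes with at least 500 counted bases lay above that. Use of strand is not stated, and the annotation has antisense transcripts across Jun, Jund and Egr1, whose reads cannot be told apart from theirs. At Fosl1, the overlap with Ccdc85b lies outside the 550 bases that were counted. It may bear on the counts of Ccdc85b, of whose span of 4401 bases 3091 were counted, and which ones is not stated. No molecular identifiers are described, so total counts limit precision by counting error at least.

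The counts were modelled with edgeR 4.0.16 under R 4.3.3. The filter on low counts was filterByExpr (minimum count 10, minimum total count 15), libraries were scaled by TMM, and a quasi-likelihood model with 1 mean per group was fitted over all 18 samples. Contrasts used glmQLFTest with Benjamini-Hochberg adjustment over 12156 genes, and a gene passed at an adjusted p of at most 0.05. Standard errors were taken from the log2 fold change and its F statistic, and 95% intervals from the moderated degrees of freedom. RPKM was computed from CPM and the deposited counted length. Log2 CPM used a prior count of 2. On counts simulated for ISO versus Vehicle, with 12043 genes tested and 200 changed 3-fold, 198 were recovered (99%) and 17 other genes were called. In the measured counts of that comparison, 3258 genes passed as higher and 3042 as lower. Standard errors there were 0.30 for Fos and 0.33 for Fosb. Recovery at the spread of the 10 members was not tested, so the 99% does not apply to them.

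Alternatives were DESeq2 1.42.0, RLE factors, total counts without TMM, no filter or a filter of at least 1 CPM in 3 samples, only the groups compared, the replicate number as a block, and leaving out each sample. All 10 members were named, and at most 4 genes of each list, those with the 2 highest and 2 lowest ISO effects. For likeness, the 3 genes with the highest Pearson r were named for Fos and Junb, and those for Egr1 are not reported here. The members and the lists were chosen with earlier results of these data known. RefSeq promoters, deposited for build GRCm38.p6, were located on mm9 by their own sequence, and Fosl1, Egr1 and Ier2 had no entry.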

Additional observations from a re-analysis of the deposited data

Results flagged for a closer look

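The effect of a stimulus differed between cells with and without lipase inhibitors, by the test of that difference in the edgeR fit, for 8 members with ISO and for 10 with SR-3420. Over all genes tested, 16.6% passed as lower and 14.9% as higher in that test for ISO, and 14.8% and 12.5% for SR-3420. The difference, the log2 fold change with inhibitors minus that without, was for ISO -1.68 for Fos, -1.07 for Fosl1, -0.47 for Fosl2, -1.64 for Jun, -1.63 for Jund, -2.38 for Egr1, -1.20 for Egr2 and -0.51 for Ier2. For SR-3420 it was -3.79 for Fos, -4.02 for Fosb, -3.03 for Fosl1, -0.27 for Fosl2, -3.05 for Jun, -2.40 for Junb, -1.41 for Jund, -3.81 for Egr1, -2.93 for Egr2 and -1.92 for Ier2. The Fosl2 call for SR-3420 was at the threshold (adjusted p = 0.0494) and was lost when any of 13 libraries was left out. Groups of 3 samples are too small for a test of single outlying samples. Leaving out each sample in turn shows only how far a call depends on that sample.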

How the results depend on the processing

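No log2 fold change of a member that had passed changed its sign under any alternative that was run. The count of members lower in Lipase Inh. + SR-3420 than in Lipase Inh. + Vehicle, 0 as reported, became 1 with no filter on low counts (Jund) and 2 with the replicate block (Fos at -0.71 and Jund at -0.32), and lay between 0 and 1 when each sample was left out, with 1 (Fosb) without Lipase Inh. + Vehicle replicate 3, and the cause was not tested. The other counts of members stayed within 1.5 times. Of the 80 values of 10 members in 8 comparisons, 80 kept their side of the threshold with RLE factors, with the filter of 1 CPM in 3 samples and with only the groups compared, 79 with DESeq2, where the remaining one had no adjusted p, 77 with no filter, and 76 each with total counts and with the replicate block. Leaving out each sample in turn changed 23 calls, 13 of them for Fosl2 in the SR-3420 interaction, and these are given with the results. Same-numbered samples deviated together for numbers 2 and 3 (mean r = 0.150 and 0.190) but not for number 1 (mean r = -0.0118), so they were not treated as pairs, and 14 of 18 samples correlated best with a sample of their own number. With the block, Fosb (-1.12, adjusted p = 0.0222) and Junb (-0.51, adjusted p = 0.00829) also passed in the ISO interaction, and no call was lost. Scaling by total counts in place of TMM moved the median log2 fold change of all genes by -0.306 for ISO, -0.16 for SR-3420, -0.225 for ISO and -0.0958 for SR-3420 with inhibitors, -0.147 for ISO versus SR-3420, -0.0205 for the inhibitors alone, and 0.0811 and 0.064 for the ISO and SR-3420 interactions. The share of calls that were higher went in that order from 51.7% to 19.9%, 50.6% to 30.8%, 51% to 27.8%, 68.8% to 33.1%, 53.1% to 20.3%, 53.2% to 42%, 47.3% to 58.6% and 45.9% to 55.8%. Depth limits Fosb most, with 3 to 482 counts per library.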
